A study of Mus musculus with 24 samples.

Results

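The cytosolic heat shock response was read here from 10 genes, Hspb1, Hspb8, Hspa1a, Hspa1b, Hspa8, Hsp90aa1, Hsph1, Dnajb1, Bag3 and Hspa4l. The genes were chosen by name, and every probe whose transcript accession maps to one of them was taken. This gave 18 probes of the 56605 on the array, and 10 gene symbols of 22911. All 18 probes were among the 38115 that were well above background on both arrays of at least 1 group. Of the 18, 17 were well above background on all 24 arrays, and the third Hsph1 probe on 20.

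Heat shock proteins are molecular chaperones of the cytosol and nucleus. When unfolded protein builds up there, heat shock factor 1 (HSF1) is released from chaperones, forms trimers and switches on their genes. This branch is separate from the unfolded protein response, in which sensors in the membrane of the endoplasmic reticulum (ER) raise the chaperones of the ER lumen. Derlin-1 and Derlin-2, the proteins deleted in this study, are ER membrane proteins of ER-associated degradation, a route by which misfolded ER proteins are passed to the cytosol and destroyed there.

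Cerebella of C57BL/6 mice were taken at postnatal day 28 and their total RNA was measured on 24 single-colour Agilent arrays, in 12 groups of 2. Controls were Derlin-1 flox/flox or Derlin-2 flox/flox mice, and knockouts (KO) carried the same floxed alleles with a Cre recombinase under the nestin promoter, which is active in neural progenitors, so the gene was deleted in neurons and glia of the whole central nervous system and not in one cell type. In both numbered series, Derlin-1 and Derlin-2, control and KO mice received 200 mg/kg 4-phenylbutyrate (4PBA), a small fatty acid used as a chemical chaperone, or water as vehicle, injected into the abdomen daily from postnatal day 14 to 28. A lettered Derlin-1 series had control and KO arrays with 4PBA and control and KO arrays whose labels name neither 4PBA nor vehicle, called untreated here. In that series 4PBA and the injections that carried it cannot be told apart. Each series lay on a slide of its own with 8 arrays, and the lettered slide was scanned on another day. Genotype followed the columns of a slide and 4PBA its rows, so slide position and group cannot be told apart. The labels do not say whether the 2 arrays of a group came from separate mice, so a p-value here measures the spread between these samples only.

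The share of spots well above background lay between 57.7% and 68.4%, and precision is limited by the number of arrays. A log2 difference had a median standard error (SE) of 0.14 where both Derlin-1 series were averaged and 0.20 on the Derlin-2 slide. The array labelled Derlin-2 KO with vehicle, replicate 1, had a control-like signal of Derl2, the gene for Derlin-2. Its leading Derl2 probe read 1.72, against 1.40 to 1.58 on the 4 control arrays and 0.18 to 0.48 on the other KO arrays. Derl3, a related gene, read -1.85 on it, near the other Derlin-2 KO arrays (-1.96, -1.93 and -0.61) and above the 4 controls (-3.03 to -2.75). The probe for Derl1, the gene for Derlin-1, did not separate the Derlin-1 genotypes (0.14 to 0.94 on KO arrays, 0.76 to 1.22 on control arrays), and the part of the gene it reads relative to the deletion was not examined. Derl3 read -3.14 to -1.69 on the 8 Derlin-1 control arrays and -0.63 to 0.37 on 7 of 8 KO arrays, but -2.27 on the array labelled lettered KO with 4PBA, replicate b. Values from a fit that left out both of these doubted arrays are given beside the main results on Hspb1, Hspa1a, Hspa1b, Hspa4l and Hsp90aa1.

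HSF1 binds inverted repeats of a short unit, GAA or its reverse complement TTC. The 250 bases before and 50 after each gene's start in RefSeq (GRCm38.p6) were searched for 2 such units, GAANNTTC or TTCNNGAA, each of which reads the same on both strands. Of the 10 genes, 8 had an entry, with 10 promoters in all; Hspa8 and Hsp90aa1 had none. One of these arrangements was present for 6 of the 8 genes, against 15.1% of 32851 promoters (7.86% held GAANNTTC and 8.52% TTCNNGAA). A run of 3 alternating units, which contains both shorter motifs, was present for Hsph1 and in 0.603% of all promoters. The stretches shown are those upstream of the start for the genes on which the results turn, with the matched letters in capitals.
Hspb1, chr5:135887782-135887849, plus strand: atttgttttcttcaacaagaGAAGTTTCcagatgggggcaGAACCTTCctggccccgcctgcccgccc
Hspa1a, chr17:34972233-34972280, minus strand: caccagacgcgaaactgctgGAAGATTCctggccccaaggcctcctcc
Hspa1b, chr17:34959315-34959362, minus strand: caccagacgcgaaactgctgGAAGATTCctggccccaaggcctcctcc
Hsph1, chr5:149636342-149636389, minus strand: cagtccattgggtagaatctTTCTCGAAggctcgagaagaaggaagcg
The Hspb1 promoter held 2 matches, which began 117 and 97 bases before the start. The Hspa1a and Hspa1b stretches were identical, each with 1 match that began 104 bases before the start, and over the whole window 296 of 300 bases (98.7%) were the same. Hsph1 has 2 starts in the table, and the match shown began 54 bases before one and 33 before the other. The run of 3 units of Hsph1 is not in the stretch shown, since it lay after both starts, from positions 16 and 37. The matches for Hspb8 and Bag3 also lay after the start, at positions 3 and 43. Neither start of Dnajb1 and not the start of Hspa4l had a match, which says only that these letters are not in that window.

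Levels are log2 intensities minus the 75th percentile of their array, and a difference of 1 is a doubling. They are compared between arrays for 1 probe at a time. With so few arrays in a group, groups can lie apart by chance, so a lack of overlap is a description and not a test. Where a gene had several probes, the one with the highest mean signal was taken as leading, and the values below are from leading probes unless another is named. In bulk tissue, fewer cells of a type and less RNA per cell cannot be told apart, for this and every later value.

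**Figure D1:**
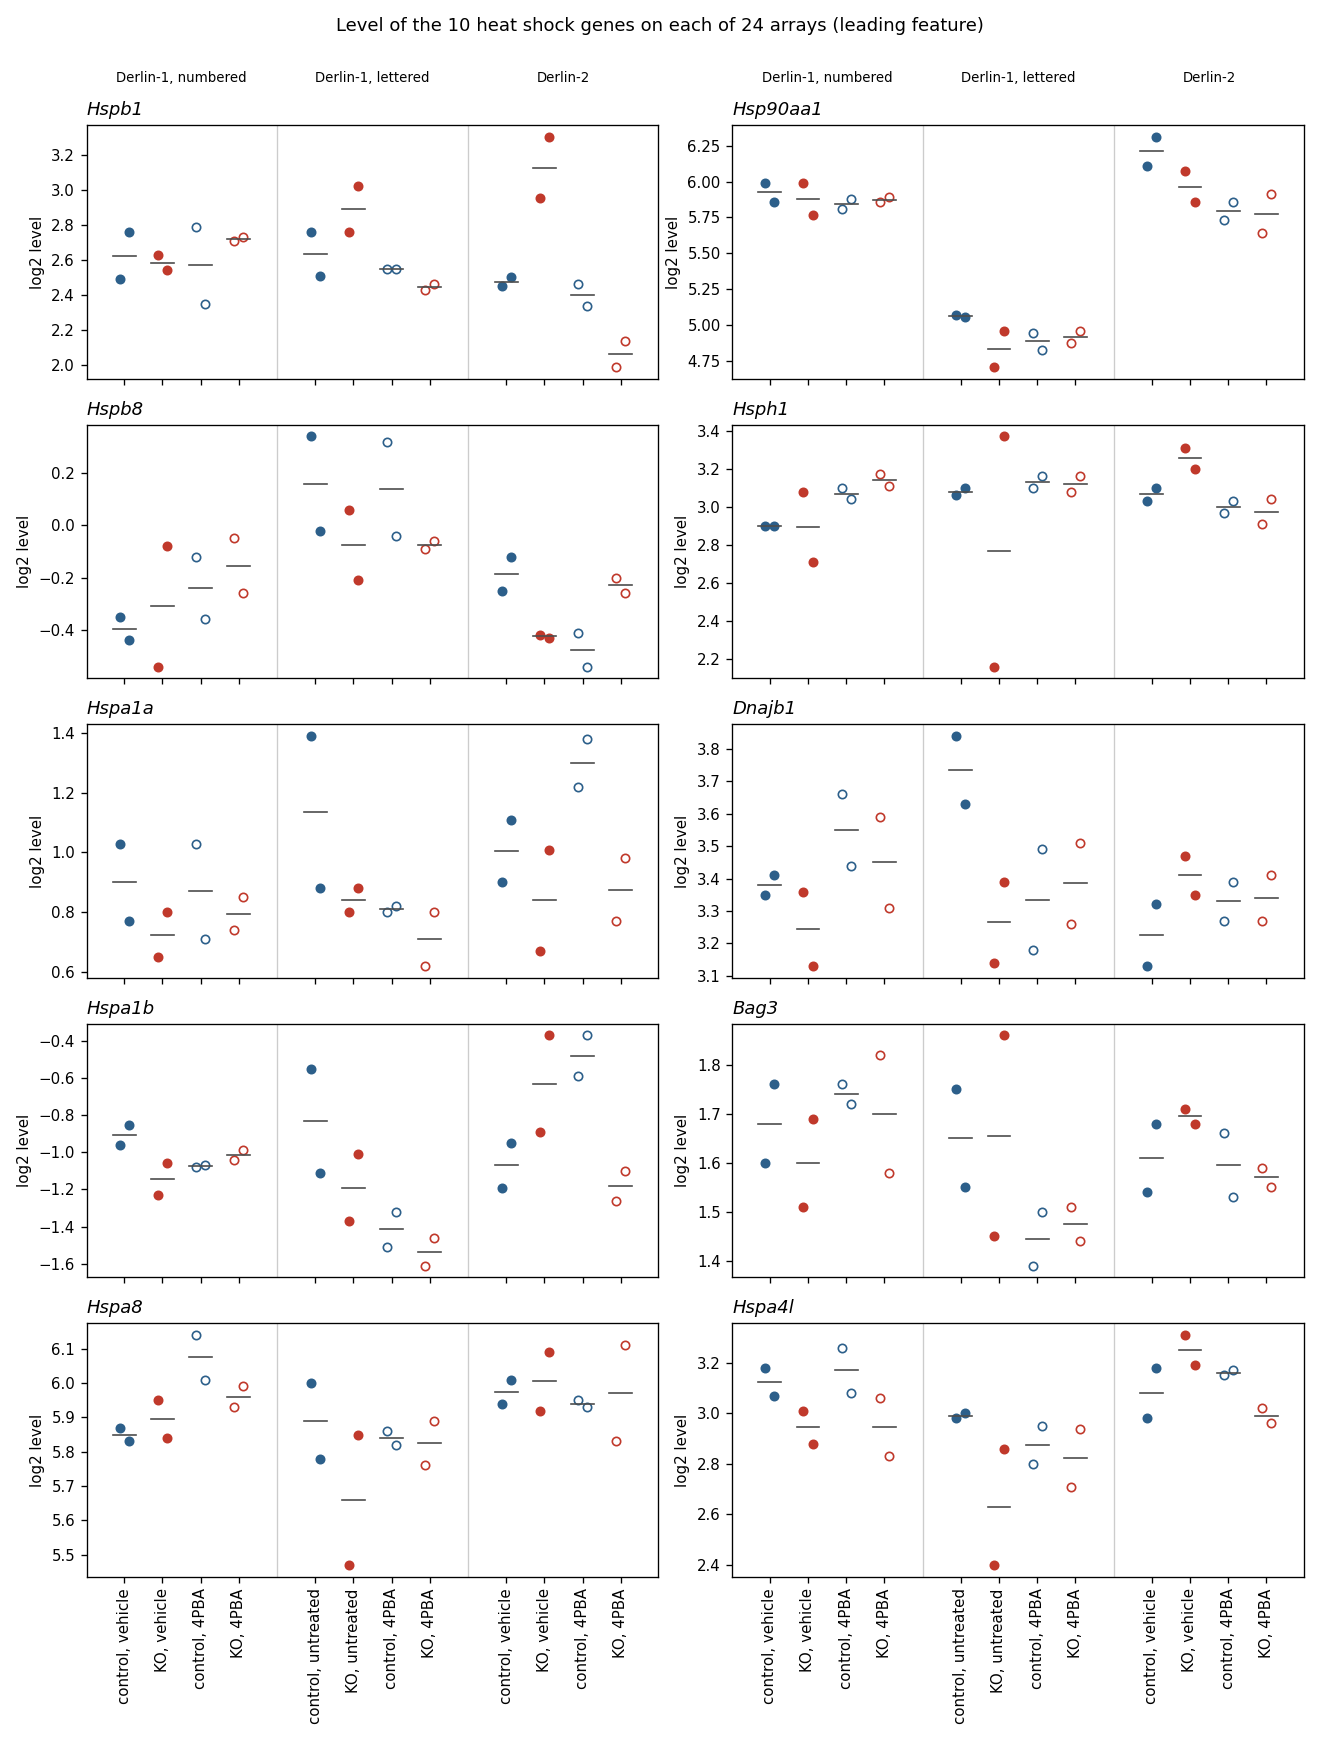
Log2 level (relative to the array's 75th percentile) of the leading probe of each gene on every array, by group and slide. Blue points are controls and red points KO, filled points arrays without 4PBA and open points arrays with 4PBA, and the line is the mean of the 2 arrays; Hspb1 ran from 1.99 to 3.30, with both ends in Derlin-2 KO, and Hsph1 read 2.16 on 1 lettered KO array.

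Among the 10 genes, 1 change passed the test in any comparison. Hspb1, which encodes HSP27, a small heat shock protein that holds unfolded proteins in a soluble state, fell under 4PBA in Derlin-2 KO. Hspb1 read 2.95 and 3.30 on the 2 Derlin-2 KO arrays with vehicle. It read 1.99 and 2.14 on the 2 Derlin-2 KO arrays with 4PBA. The groups did not overlap, and of the 8 arrays of the slide the 4PBA pair held the lowest levels and the vehicle pair the highest. The log2 difference was -1.06 (SE 0.16, n = 2 arrays against 2, limma adjusted p = 0.0136), to 0.481 of the vehicle level. Across the 38098 probes tested, those past the background filter, 0.155% were called in this comparison (59 probes). Without that filter 5518 of 56570 were called, and Hspb1 had an adjusted p of 0.00586. Later shares and medians over all probes are over those past the filter.

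In Derlin-2 controls Hspb1 did not show that difference. The control arrays read 2.45 and 2.50 with vehicle and 2.46 and 2.34 with 4PBA, a log2 difference of -0.08 (SE 0.16, 95% interval -0.42 to 0.26, adjusted p = 0.963). Among vehicle arrays Hspb1 was above both controls on both Derlin-2 KO arrays, by 0.64 (SE 0.16, 1.56-fold), with an unadjusted p of 0.0012 and an adjusted p of 0.287. Under 4PBA both KO arrays were below both controls, with a KO minus control value of -0.33 (SE 0.16, adjusted p = 1). The test of the change in the KO difference itself, with 4PBA against with vehicle, gave -0.98 (SE 0.22, 95% interval -1.46 to -0.49, adjusted p = 0.256). It did not pass, so an effect of 4PBA on Hspb1 that differs between Derlin-2 KO and control is not shown across the whole array. Without both doubted arrays, the KO minus control value of Hspb1 with vehicle was 0.82 (adjusted p = 0.118) and the change in the KO difference -1.15 (adjusted p = 0.162).

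The Hspb1 call rested on few arrays. Without the array labelled Derlin-2 KO with vehicle, replicate 1, the one with control-like Derl2, the difference was -1.23 (adjusted p = 0.0111), and it was -1.23 (adjusted p = 0.0195) when the Derlin-1 array with control-like Derl3 was left out as well. A group left with 1 array has no spread of its own and is assumed to vary like the other groups. Without replicate 2 of that group it was -0.88 (adjusted p = 0.104) and the call was lost. With the replicate numbers as a block the value stayed at -1.06 with an adjusted p of 0.0501.

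Several marker lists also separated the 4PBA from the vehicle arrays of Derlin-2 KO. Markers of Purkinje cells, the output neurons of the cerebellar cortex, averaged 5.91 to 6.00 with vehicle and 5.64 to 5.71 with 4PBA, with negative differences for 8 of 8 genes and none called. They were also lower with 4PBA in Derlin-2 controls (5.98 to 6.00 with vehicle, 5.81 to 5.84 with 4PBA). Endothelial markers averaged 0.45 to 0.57 and 0.31 to 0.34, with negative differences for 5 of 6. In Derlin-2 KO, granule neuron markers averaged 5.15 to 5.16 with vehicle and 5.01 to 5.08 with 4PBA, and microglial markers -0.46 to -0.36 and -0.52 to -0.50. Pericyte and smooth muscle markers averaged 0.01 to 0.13 with vehicle and -0.16 to -0.07 with 4PBA, and blood genes 3.97 to 4.01 and 3.37 to 3.80. Markers of hindbrain outside the cerebellum averaged -3.43 to -2.91 and -3.85 to -3.46. Of the pathway lists, HSP90 genes and co-chaperones averaged 3.27 to 3.28 with vehicle and 3.09 to 3.14 with 4PBA, J proteins 3.10 to 3.13 and 2.98 to 3.04, and the chaperonin TRiC 3.57 to 3.58 and 3.42 to 3.49. All pathway lists together averaged 2.02 to 2.07 and 1.94 to 1.98. All 8 Purkinje and all 6 endothelial markers were well above background on every array. Immediate early genes, which respond within minutes to activity or handling, averaged -0.51 to -0.41 with vehicle and 0.13 to 0.42 with 4PBA. This mean is over all 11 genes, of which 9 were well above background on every array. Differences were positive for 10 of 11 genes and none was called. Lists also separated the vehicle KO arrays from the vehicle controls, where Hspb1 differed by 0.64. Higher in KO were ER chaperones (1.91 to 2.27 against 1.57 to 1.68 on controls), HSP90 genes and co-chaperones (controls 3.15 to 3.20), nucleotide exchange factors (both KO arrays 1.14, controls at most 1.12), granule neuron markers (controls 5.08 to 5.10), endothelial markers (controls 0.36 to 0.38) and hindbrain markers (controls -3.98 to -3.92). Lower in KO were immediate early genes (controls 0.14 to 0.38), cold-inducible genes (3.19 to 3.34 against 3.72 to 3.75) and markers of microglia (controls -0.31 to -0.29). The mean of HSP70 and HSP110 genes was lower too (0.55 to 0.64 against 0.67 to 0.71). That mean includes the dim Hspa1l, not well above background on every array, whose level averaged -5.79 in KO and -4.95 in controls. A lower level of the list without Hspa1l is not shown. Markers of astrocytes and Bergmann glia (3.58 to 3.73 against 3.84 to 3.94), meningeal fibroblasts (0.36 to 0.40 against 0.61 to 0.71) and blood (controls 4.02 to 4.37) were lower in KO too. The part of all these lists in the Hspb1 values was not tested.

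On both Derlin-1 slides Hspb1 stayed in a narrower range. In the numbered series it read 2.49 and 2.76 on control arrays with vehicle and 2.63 and 2.54 on KO arrays with vehicle. With 4PBA it read 2.79 and 2.35 on controls and 2.71 and 2.73 on KO. In the lettered series it read 2.76 and 2.51 on untreated controls and 2.76 and 3.02 on untreated KO, and 2.55 and 2.55 on controls and 2.43 and 2.46 on KO with 4PBA. Genotypes overlapped or touched in both series without 4PBA, and lettered KO arrays were lower with 4PBA than without. Averaged over both series, 4PBA minus none in Derlin-1 KO was -0.15 (SE 0.11, adjusted p = 1), made up of 0.14 (numbered) and -0.44 (lettered). The difference of the 4PBA effect in KO between the Derlin-2 and Derlin-1 lines was -0.90 (SE 0.19, 95% interval -1.32 to -0.49, adjusted p = 0.195), and -1.07 (adjusted p = 0.154) without both doubted arrays.

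The 5 genes outside the 10 whose levels ran most like those of Hspb1 were Eml1 (r = 0.88), Rufy3 (r = 0.87), Rnf26 (r = 0.85), Fam107b (r = 0.84) and Bcar1 (r = 0.82). These are Pearson correlations over 24 arrays of levels centred on their slide, among 16925 genes compared, and describe these arrays only, since all values come from the same libraries.

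**Figure D2:**
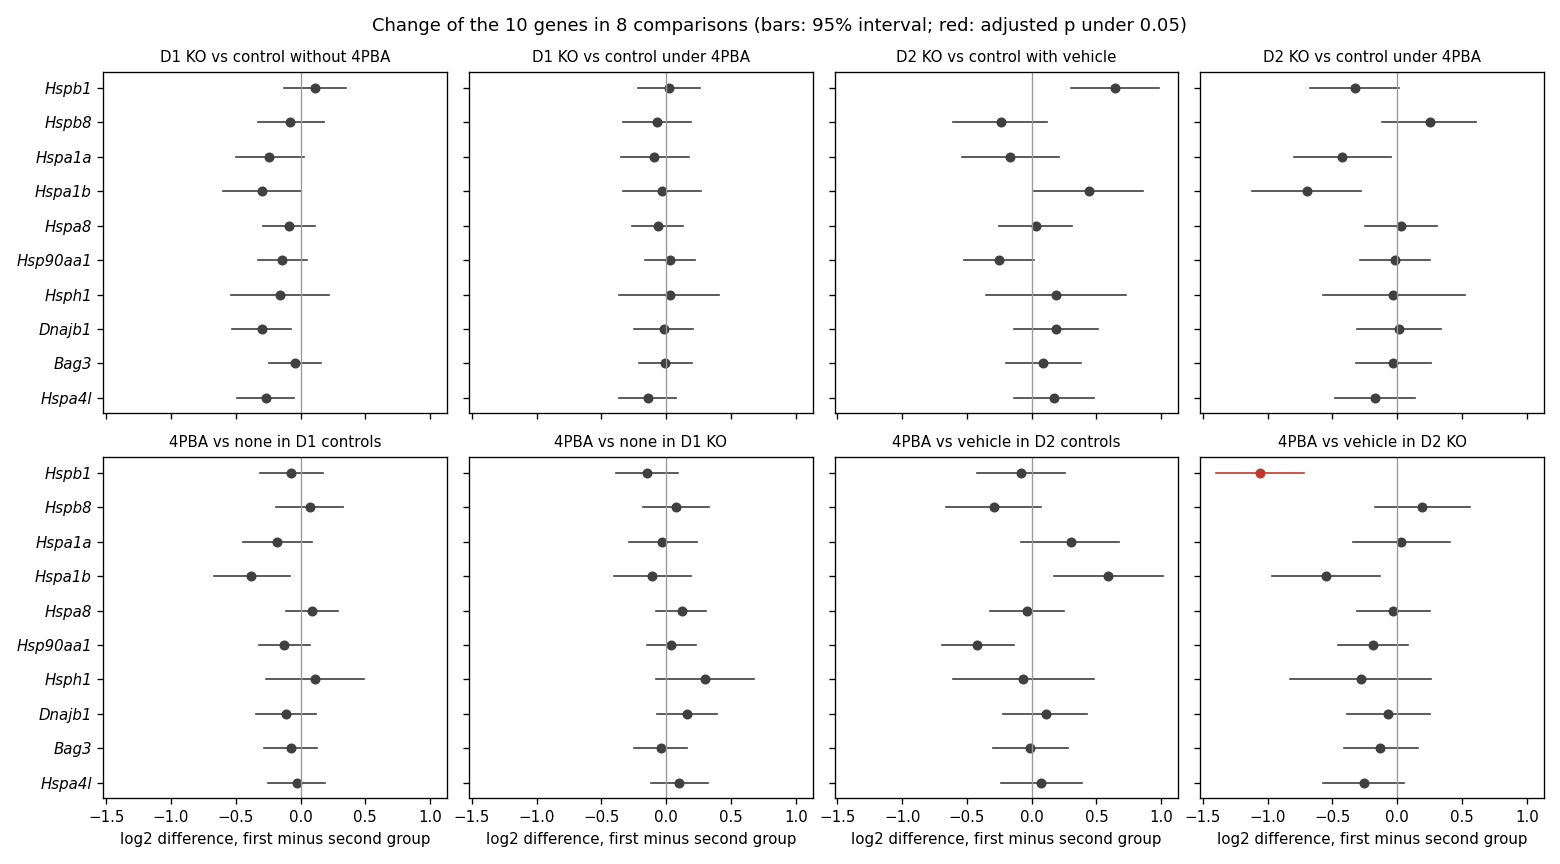
Log2 difference of each gene's leading probe in 8 comparisons (D1, Derlin-1; D2, Derlin-2), first group minus second, with the 95% interval. Hspb1 under 4PBA in Derlin-2 KO, at -1.06, is the only value with an adjusted p under 0.05 (red).

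Hspb8, another small heat shock protein, which works with Bag3 in clearing aggregates, was not called in any comparison. On the Derlin-2 slide it read -0.25 and -0.12 on controls and -0.42 and -0.43 on KO with vehicle. With 4PBA it read -0.41 and -0.54 on controls and -0.20 and -0.26 on KO. KO lay below control with vehicle and above it with 4PBA, without overlap, with differences of -0.24 (SE 0.17, adjusted p = 0.816) and 0.25 (SE 0.17, adjusted p = 1). Such separation was common on this slide. Of the 10 genes, 8 did not overlap between KO and control with vehicle and 5 did not with 4PBA, and none was called. The signs of Hspb8 were opposite to those of Hspb1 in both comparisons, and the change between them was 0.49 (SE 0.24, adjusted p = 1). Over the 16 Derlin-1 arrays Hspb8 ranged from -0.54 to 0.34, and the KO and control levels overlapped without 4PBA. Bag3, the co-chaperone that ties HSP70 to small heat shock proteins and to autophagy, ranged from 1.39 to 1.86 over the 24 arrays, and its 8 differences lay between -0.13 and 0.09.

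Hspa1a and Hspa1b encode the stress-inducible HSP70, which refolds proteins in the cytosol. They are near-identical neighbouring genes, each read by 1 probe here, and how far each probe also binds the other transcript was not examined. Their levels correlated across the 24 slide-centred arrays with r = 0.74, the highest of the 45 pairs among the 10 genes. Of the 45 pairs 40 were positive, with a median of 0.26 and a range of -0.16 to 0.74, and all points share their arrays.

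Hspa1b showed a crossing pattern on the Derlin-2 slide that did not pass the test. It read -1.19 and -0.95 on controls and -0.89 and -0.37 on KO with vehicle. With 4PBA it read -0.59 and -0.37 on controls and -1.26 and -1.10 on KO. KO was above control with vehicle (0.44, SE 0.20, adjusted p = 0.712) and below it with 4PBA (-0.70, SE 0.20, adjusted p = 0.406), with no overlap in either. Set by treatment, 4PBA minus vehicle was 0.59 in controls (SE 0.20, adjusted p = 0.547) and -0.55 in KO (SE 0.20, adjusted p = 0.483). The change in the KO difference was -1.14 (SE 0.28, 95% interval -1.74 to -0.55), with an unadjusted p of 0.00107 and an adjusted p of 0.307. Without both doubted arrays the change in the KO difference was -1.40 (adjusted p = 0.133), KO minus control with vehicle 0.70 (adjusted p = 0.288) and 4PBA minus vehicle in KO -0.81 (adjusted p = 0.222). Without vehicle KO replicate 2 the same 3 Hspa1b values were -0.88 (adjusted p = 0.867), 0.18 (adjusted p = 1) and -0.29 (adjusted p = 0.986).

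Hspa1a followed Hspa1b only in part. It read 0.90 and 1.11 on Derlin-2 controls and 0.67 and 1.01 on KO with vehicle, which overlapped. With 4PBA it read 1.22 and 1.38 on controls and 0.77 and 0.98 on KO, which did not overlap, a KO minus control value of -0.43 (SE 0.17, adjusted p = 0.894). The 4PBA minus vehicle value was 0.30 in controls (SE 0.17, adjusted p = 0.86) and 0.03 in KO (SE 0.17, adjusted p = 0.976). The KO value was -0.14 without both doubted arrays and ran from -0.21 to 0.21 over all alternatives. On the lettered Derlin-1 slide both genes had their highest level on the untreated control array a, 1.39 for Hspa1a and -0.55 for Hspa1b. The other 7 arrays of the slide ran from 0.62 to 0.88 for Hspa1a and from -1.61 to -1.01 for Hspa1b. Under 4PBA, lists also separated Derlin-2 KO from control. ER chaperones averaged higher in KO (1.81 to 2.01 against 1.47 to 1.68), as did choroid plexus markers. Among those lower were markers of oligodendrocytes (3.15 to 3.32 against 3.45 to 3.57) and Purkinje cells (5.64 to 5.71 against 5.81 to 5.84), and blood genes (3.37 to 3.80 against 4.39 to 4.68). The part of these lists in the Hspa1a, Hspa1b and Hspb1 values was not tested.

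In the Derlin-2 line as a whole, KO against control with vehicle gave positive values for 7 of 10 genes, with a median of 0.13 against 0.00 over all probes. The median was 0.04 without control vehicle replicate 1 and 0.20 without replicate 2. None was called, where 0.121% of all probes were, and 2 genes had an unadjusted p under 0.05, Hspb1 and Hspa1b. Over all probes, 2652 of 38107 had an unadjusted p under 0.05. Under 4PBA the median was -0.03 with 3 of 10 positive and none called (0.171% of all probes), and with 1 array left out it ran from -0.12, without KO replicate 2, to 0.00, without KO replicate 1. For 4PBA against vehicle in Derlin-2 controls the median was -0.02 with 4 of 10 positive and none called (0.176%). This median was -0.19 after median scaling (all probes -0.18), -0.08 without control vehicle replicate 1 and 0.03 without replicate 2. In Derlin-2 KO the median was -0.16 with 2 of 10 positive, and Hspb1 was the call. The KO median was -0.04 after quantile normalization and -0.40 after median scaling (all probes -0.26).

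Derlin-1 KO without 4PBA had calls for 5.09% of the probes that passed the background filter (1938 of 38110; 1069 of 56599 without the filter), and none of the 10 genes or of their 18 probes was among them. The values were small and mostly negative: 9 of 10 genes were below 0, with a median of -0.15 against 0.02 over all probes and a range of -0.30 to 0.11. The upper ends of the 95% intervals reached at most 0.35. Unadjusted p-values under 0.05 were found for Dnajb1 (-0.30, SE 0.11, adjusted p = 0.125), Hspa4l (-0.27, SE 0.10, adjusted p = 0.154) and Hspa1b (-0.30, SE 0.14, adjusted p = 0.24). Over all probes, 7731 of 38110 had an unadjusted p under 0.05 in this comparison. The Hspa1b value was -0.16 (adjusted p = 0.622) without lettered untreated control a. By series, the median was -0.06 (numbered) and -0.27 (lettered). Over both series it was -0.23 without the lettered untreated KO array b, -0.08 after quantile normalization and -0.26 after median scaling, which moved the median of all probes to -0.09.

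ER chaperones were raised on the same arrays. All 14 of the list were called higher, with a median of 0.89. Hspa5, the ER counterpart of HSP70 known as BiP, rose by 1.23 (SE 0.18, adjusted p = 0.00502), Sdf2l1, its partner in the ER lumen, by 1.80 (SE 0.30, adjusted p = 0.00688), and Canx, the membrane lectin calnexin, by 0.43 (SE 0.11, adjusted p = 0.0341). ER chaperone levels averaged 1.58 to 1.84 on the 4 control arrays without 4PBA and 2.51 to 2.96 on the 4 KO arrays. Markers of microglia, the brain's resident macrophages, were also higher, 6 of 8 called with a median of 1.24, and granule neuron markers had negative differences for 8 of 8 with 2 called. Of the 11 immediate early genes 2 were called lower, Jun (-0.55) and Dusp1 (-1.35). The part of these lists in the heat shock values was not tested.

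Pathway genes around the 10 were counted from 8 lists of 51 genes, of which 50 were measured. In Derlin-1 KO without 4PBA 1 was called higher and none lower, and the median was -0.09. The call was Hspa9, the mitochondrial HSP70 (0.39, SE 0.08, adjusted p = 0.0151). Hsf1, the factor that drives the response, differed by -0.09 (SE 0.12, adjusted p = 0.765), Hsf2, a related factor, by -0.11 (SE 0.09, adjusted p = 0.539), and Hsp90ab1, the constitutive HSP90, by -0.19 (SE 0.08, adjusted p = 0.237). None of 4 regulators, 5 small heat shock proteins, 6 HSP70 and HSP110 genes, 7 measured J proteins (which hand clients to HSP70), 11 HSP90 genes and co-chaperones, 5 nucleotide exchange factors and 8 subunits of the chaperonin TRiC was called. Genes for HSP90 and its co-chaperones averaged 3.04 to 3.21 on KO and 3.13 to 3.14 on control arrays with vehicle in the numbered series, which overlapped. In the lettered series they averaged 2.91 on untreated KO array a and 3.32 on array b, against 3.36 to 3.46 on untreated controls. The list of small heat shock proteins averaged higher on KO arrays in both series, without overlap. With vehicle in the numbered series it averaged -0.85 to -0.8 on KO and -1.09 to -0.88 on controls. On untreated lettered arrays it averaged -0.61 to -0.36 on KO and -0.78 to -0.65 on controls. This mean includes the dim Hspb7, not well above background on every array.

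**Figure D3:**
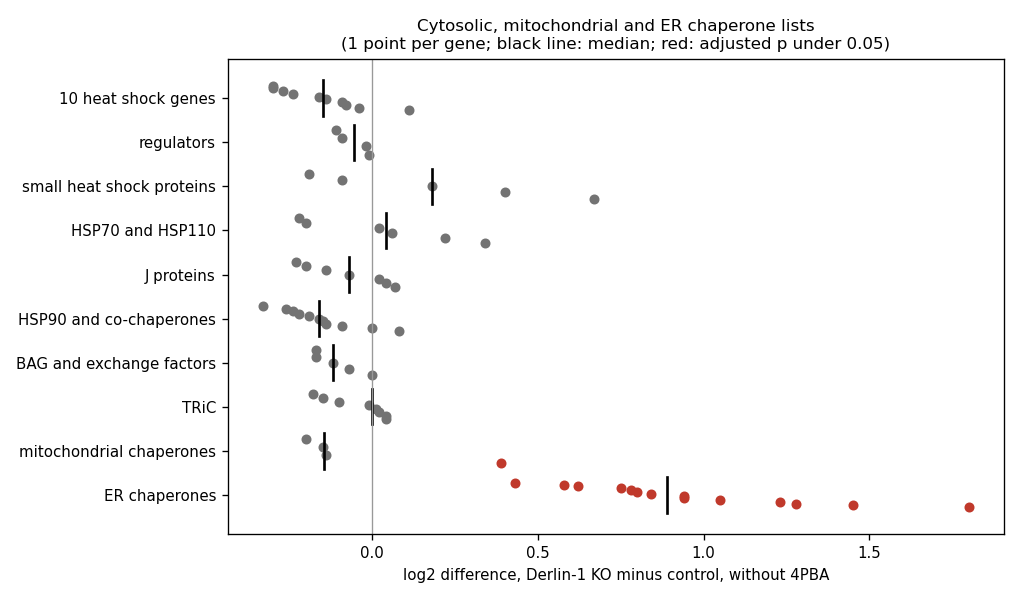
Log2 difference of Derlin-1 KO minus control without 4PBA, 1 point per gene, for the 10 heat shock genes, 8 pathway lists and the ER chaperones; the black line is the median and red points had an adjusted p under 0.05. All 14 ER chaperones lie between 0.43 and 1.80, while the 10 heat shock genes lie between -0.30 and 0.11.

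Hsph1, an HSP110 that acts as exchange factor for HSP70, had uneven levels on the lettered Derlin-1 slide. In the lettered series it read 3.06 and 3.10 on untreated controls and 2.16 and 3.37 on untreated KO. With 4PBA it read 3.10 and 3.16 on controls and 3.08 and 3.16 on KO. The KO array a was the lowest and KO array b the highest of the 8 arrays of this slide. The second Hsph1 probe gave 0.45 on array a and 1.66 on array b, against 1.33 to 1.45 on the other 6 arrays of the slide, and both probes correlated with r = 0.97 over 24 slide-centred arrays. The third, near background, correlated with them at 0.43 and 0.46 over 23 arrays. In the numbered series Hsph1 read 2.90 and 2.90 on controls and 3.08 and 2.71 on KO with vehicle, so the genotypes overlapped there too.

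The same array was low for other genes. Hspa4l, an HSP110 relative, read 2.40 on it, the lowest of the slide, and 2.86 on array b, while both untreated lettered controls were at or above 2.98. Hspa8, the constitutive HSP70 that uncoats clathrin vesicles, read 5.47 on it, against 5.76 to 6.00 on the other 7 arrays of the slide. Dnajb1, the J protein that delivers clients to HSP70, read 3.14 and 3.39 on untreated lettered KO and 3.84 and 3.63 on untreated lettered controls, without overlap. In the numbered series Dnajb1 read 3.36 and 3.13 on KO and 3.35 and 3.41 on controls with vehicle, which overlapped. Dnajb1 differed by -0.47 in the lettered series (SE 0.15, adjusted p = 0.137) and -0.13 in the numbered series (SE 0.15, adjusted p = 0.896).

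Leaving out either array of that pair changed the Hsph1 result. Without array a the Derlin-1 KO difference without 4PBA was 0.14 (adjusted p = 0.517). Without array b it was -0.46 (adjusted p = 0.00868), and Hspa4l was then also called (-0.38, adjusted p = 0.0247), against -0.15 (adjusted p = 0.537) for Hspa4l without array a. The cold-inducible genes Cirbp and Rbm3, whose transcripts rise when cells cool, averaged 4.32 on array a and 2.88 on array b, where the other 6 arrays of the slide ran from 2.92 to 3.71. Derl1 read 0.14 on array a, the lowest of the slide. Choroid plexus markers averaged 2.12 on array a and -3.10 on array b. The part of these in the levels of Hsph1 and Hspa4l was not tested.

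**Figure D4:**
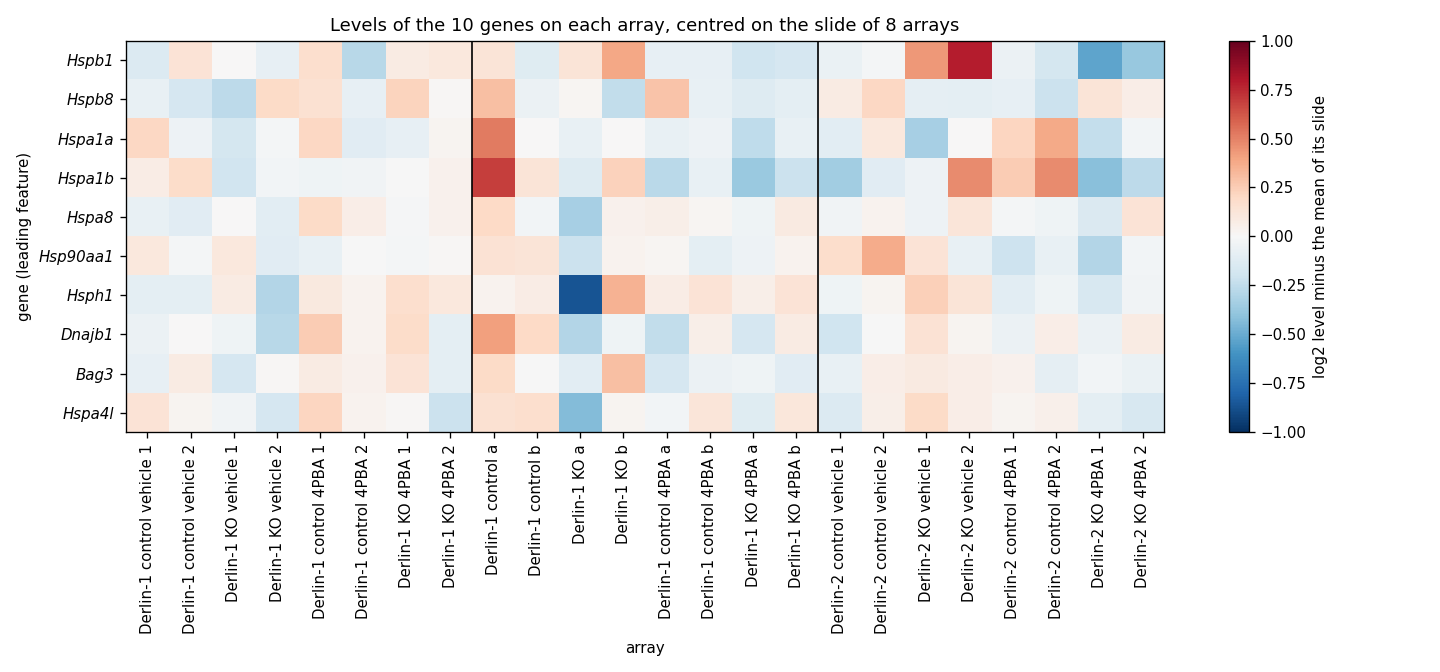
Level of each gene's leading probe on each array minus the mean of its slide of 8 arrays (log2; red above, blue below, vertical lines between slides). The lettered array Derlin-1 KO a is low for Hsph1 (level 2.16) and Hspa4l (2.40), Hspa1b is high on lettered control a (-0.55), and Hspb1 runs from high to low across the Derlin-2 KO arrays (3.30 to 1.99).

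Under 4PBA the Derlin-1 genotypes were close for all 10 genes. KO minus control ranged from -0.14 for Hspa4l to 0.03 for Hsp90aa1 and Hsph1, with a median of -0.03, and none was called, where 0.063% of all probes were. Without the array with control-like Derl3, Hspa4l differed by -0.19 (adjusted p = 0.549) and Hspa1a by -0.13 (adjusted p = 0.799), the median was -0.07, and again none was called. With 1 array left out the median ran from -0.08, without numbered control replicate 2, to 0.01, without lettered control b. The 95% intervals of the 10 genes together spanned -0.36 to 0.41, and differences within it could not be resolved.

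In Derlin-1 controls, 4PBA minus none was not called for any of the 10 genes (0.0341% of all probes), with a median of -0.07. In the lettered series none means untreated, so 4PBA and its injections cannot be told apart there. By series the median was 0.05 (numbered) and -0.14 (lettered), it was -0.14 after median scaling (all probes -0.07), and it ran from -0.13 to -0.02 with 1 array left out, -0.02 without numbered control 4PBA replicate 2 and -0.13 without lettered untreated control b. Hspa1b gave -0.38 (SE 0.14, unadjusted p = 0.0168, adjusted p = 1), made up of -0.17 (numbered) and -0.58 (lettered). It read -0.96 and -0.85 with vehicle and -1.08 and -1.07 with 4PBA in the numbered series, and -0.55 and -1.11 without and -1.51 and -1.32 with 4PBA in the lettered series. Both 4PBA arrays lay below both others on each slide. Immediate early genes averaged 0.24 to 0.65 without and 0.10 to 0.15 with 4PBA on these control arrays in the numbered series, and in the lettered series at least 0.47 without and at most 0.17 with 4PBA. The list of small heat shock proteins averaged -1.09 to -0.88 without and -1.19 to -1.18 with 4PBA on the numbered controls, and -0.78 to -0.65 and -0.86 to -0.82 on the lettered ones. This mean includes the dim Hspb7, well above background on 1 of 2 numbered controls with vehicle and 0 of 2 with 4PBA. On the lettered controls that was 2 of 2 untreated and 1 of 2 with 4PBA. The part of these lists in the Hspa1b values was not tested. In Derlin-1 KO the median was 0.06 with 6 of 10 positive and none called (0.0525%). By series it was 0.11 (numbered) and 0.04 (lettered), and with 1 array left out it ran from -0.02, without lettered untreated KO array a, to 0.08, without array b. Hsph1 had the highest value, 0.30 (SE 0.18, adjusted p = 0.981), which was 0.00 without lettered untreated KO array a and 0.60 (adjusted p = 0.0131) without array b. The list gene Hspa1l, an HSP70 relative known from testis, was called lower in this comparison (adjusted p = 0.0399). Its probe was well above background on 17 of 24 arrays and on neither numbered KO array with 4PBA, so no size is given.

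Hsp90aa1, the inducible HSP90 that matures kinases and steroid receptors, was lower with 4PBA in Derlin-2 controls without passing the test. It read 6.11 and 6.31 on controls and 6.07 and 5.86 on KO with vehicle. With 4PBA it read 5.73 and 5.86 on controls and 5.64 and 5.91 on KO. In controls the 4PBA arrays lay below the vehicle arrays, with a difference of -0.42 (SE 0.13, unadjusted p = 0.00541, adjusted p = 0.466), and the second probe gave -0.39 (adjusted p = 0.484). In KO the groups overlapped, with -0.19 (SE 0.13, adjusted p = 0.788), and -0.08 (adjusted p = 1) without both doubted arrays. Both probes correlated with r = 0.93. On the Derlin-2 controls mitochondrial chaperones (2.84 to 2.89 against 2.92 to 2.98) and cold-inducible genes (3.44 to 3.51 against 3.72 to 3.75) also averaged lower with 4PBA. Among other lists, markers of astrocytes and Bergmann glia were lower (3.67 to 3.71 against 3.84 to 3.94) and blood genes higher (4.39 to 4.68 against 4.02 to 4.37). The part of these lists in the Hsp90aa1 values was not tested.

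Hspa8 was read by 4 probes, which correlated with r from 0.68 to 0.93, and none was called in any comparison. Its leading probe ranged from 5.83 to 6.14 over the 16 arrays of both numbered slides, and its 8 differences lay between -0.09 and 0.12. The 3 probes of Hspa4l correlated with r from 0.57 to 0.92.

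Levels also differed between slides, where scan day, series and slide cannot be told apart. Hsp90aa1 read 4.71 to 5.07 on the lettered slide and 5.64 to 6.31 on both others, with no overlap, and its second probe 4.28 to 4.63 against 4.72 to 5.32. The 3 further Hspa8 probes had higher medians on the lettered slide, in one case 4.34 to 4.89 against 3.63 to 4.25, while the leading Hspa8 probe overlapped (5.47 to 6.00 against 5.83 to 6.14). Probes of 1 transcript thus shifted differently between slides, and every log2 difference between groups above was taken within slides. A comparison of the Derlin-2 with the Derlin-1 line sets such within-slide differences against each other.

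None of the 10 genes was called in the 5 tests of a difference between effects. The share of all probes called was 0.0315% for the Derlin-1 KO difference with against without 4PBA, and 0.0893% for the Derlin-2 KO difference with 4PBA against vehicle. It was 0.0682% for the KO difference without 4PBA between Derlin-2 and Derlin-1, 0.0735% for the 4PBA effect in KO between the lines, and 0.0131% for the Derlin-1 KO difference between lettered and numbered series. For the KO difference without 4PBA, Derlin-2 minus Derlin-1 gave positive values for 8 of 10 genes, with a median of 0.24 against 0.00 over all probes. The median was 0.05 without lettered untreated KO array a and 0.39 without array b. Hspa1b had 0.74 (SE 0.24, adjusted p = 0.289), Hspb1 0.54 (SE 0.19, adjusted p = 0.335), Dnajb1 0.49 (SE 0.19, adjusted p = 0.356) and Hspa4l 0.43 (SE 0.18, adjusted p = 0.388). The pathway list had 1 call in these tests, Hspa1l, for the 4PBA effect in KO between the lines (adjusted p = 0.0454). On the numbered KO arrays with 4PBA of both lines its signal was not well above background, so no size is given.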

How the data were processed

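The 10 genes and all lists were chosen with earlier results of these data known. Cy3-labelled cerebellar RNA was hybridised to Agilent arrays and read with Agilent Feature Extraction 10.7.1.1, per the submitters' processing notes. The deposited value of a spot is its processed signal, a linear intensity after background correction, per the file headers. No normalization between arrays is recorded in the sources used here. The authors' deposited series table, also of linear intensity, equalled these signals at single-spot probes (largest log2 difference 1.74e-06).

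Control spots were left out, flagged spots (52 to 637 per array) were set missing, and repeated spots were averaged. Probes were named through RefSeq accessions (32994 named), and array-design and RefSeq builds differ, so coordinates are RefSeq's promoters only. The log2 intensity was lowered by each array's 75th percentile (intensity 890 to 1170). The 38115 probes well above background on both arrays of a group entered 1 limma fit (limma 3.58.1, R 4.3.3) of 24 arrays with 12 group means (12 residual and 1.91 prior degrees of freedom). Derlin-1 comparisons averaged both series. Tests were two-sided, with Benjamini-Hochberg adjustment over all probes of a comparison. The threshold of a call was an adjusted p of 0.05, and all adjusted p-values are limma's. The fit was tested on simulated data.

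Named were all 10 genes, called list genes with Hsf1, Hsf2 and Hsp90ab1, and the 5 genes most correlated with a called member. ER chaperone, immediate early, cold-inducible and cell type lists are given as values where they move with a result. Replicate numbers were not used to pair the arrays in the main fit. Of 18 correlations of deviations between groups of a slide, 8 exceeded 0.1 (-0.21 to 0.65). The highest was between untreated and 4PBA controls of the lettered slide, so some groups shared deviations by replicate label. Alternatives were scaling, background, filter, probe choice, flags, series table, slide, replicate block, array weights, single series and left-out arrays.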

Additional observations from a re-analysis of the deposited data

How the results depend on the processing

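The arrays number 2 per group, and a difference of the size seen for most of the 10 genes lies within the intervals given. Of 1712 recomputed values of the 10 genes, 1688 kept their side of the threshold and either their direction or a value within 1 replicate SD. The fall of Hspb1 under 4PBA in Derlin-2 KO ran from -1.30 to -0.88 over 16 alternatives, with adjusted p from 0.00457 to 0.104. It was called in 14 of them, with 0 genes called under the replicate block (adjusted p = 0.0501; 50 probes called over the array, against 59) and without replicate 2 of the vehicle KO arrays. The block changed no other call of the 10 genes. Without the background filter, calls over the array numbered 5518 (against 59) for 4PBA in Derlin-2 KO, 3950 (against 67) in Derlin-2 controls and 1069 (against 1938) for Derlin-1 KO without 4PBA. Median scaling moved the median of all probes to -0.18 (4PBA in Derlin-2 controls) and -0.26 (in Derlin-2 KO). Under it Dnajb1 (-0.06) and Hspa4l (-0.09) turned in those controls, and Hspb8 (-0.05) and Hspa1a (-0.21) in that KO. Quantile normalization turned Hspa8 in Derlin-2 KO (0.16). In the numbered series alone, Hspa8 turned in Derlin-1 KO without 4PBA (0.05). Under 4PBA Dnajb1 (0.17) and Bag3 (0.06) turned in Derlin-1 controls, and Hspb1 (0.14), Hspa1b (0.13) and Bag3 (0.09) in Derlin-1 KO. The Derlin-1 interaction turned for Hspb1 (0.19). In the lettered series alone Hspa8 turned in Derlin-1 controls under 4PBA (-0.05). With 1 array left out, called genes numbered 0 to 1 for 4PBA in Derlin-2 KO, 0 to 2 for Derlin-1 KO without 4PBA, 0 to 1 for 4PBA in Derlin-1 KO and 0 to 1 for the line difference of the 4PBA effect in KO. Values ran from -0.15 to 0.12 for Hsp90aa1 and -0.11 to 0.17 for Hspa8 in Derlin-2 KO under 4PBA, -0.17 to 0.11 for Hspa8 with 4PBA in Derlin-2 KO and -0.40 to 0.15 for Hspa1b between the Derlin-1 series. Hsph1 ran from -0.46 to 0.14 in Derlin-1 KO without 4PBA and 0.00 to 0.60 for 4PBA in Derlin-1 KO. For these reversals the cause was not tested. Normexp on median signals and leaving out both doubted arrays were added after seeing the data; normexp on mean signals was not run, since that column is not among those used here.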
